A study of Homo sapiens with 12 samples.

Results

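The cyclins of classes A to E are the regulatory subunits that switch on the cyclin-dependent kinases (CDKs) of the cell cycle. Their transcripts were followed in A375, a human melanoma cell line, after treatment with ciclopirox, an antifungal compound that binds iron, or crizotinib, which blocks the kinases MET and ALK. All probes annotated to CCNA1, CCNA2, CCNB1, CCNB2, CCND1, CCND2, CCND3, CCNE1 and CCNE2 were taken, whatever their values, which gave 11 of the 38220 probes in the normalized table for these 9 genes. The 12 arrays fell into 5 groups: vehicle control (n = 2), ciclopirox for 8 h (n = 3), ciclopirox for 24 h (n = 2), crizotinib for 8 h (n = 3) and crizotinib for 24 h (n = 2). Each drug was given at the concentration that inhibits 75% as set at 72 h of treatment, and the controls received DMSO. The labels give the controls no time, so the same 2 control arrays served both times, and the comparisons with control share them. Comparisons with control, and those between 8 h and 24 h, therefore cannot tell the effect of a drug from time in culture. All arrays held RNA of this 1 line, and nothing in the labels says whether replicates came from separate cultures, so p-values measure the spread between these samples, which may be technical.

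As background, D cyclins (CCND1, CCND2, CCND3) bind CDK4 and CDK6 in G1 phase and link growth signals, which in melanoma run largely through BRAF and MAP kinase, to phosphorylation of the retinoblastoma protein RB. E cyclins (CCNE1, CCNE2) then bind CDK2 at the entry into S phase. CCNA2 serves CDK2 in S phase and CDK1 in G2, the B cyclins (CCNB1, CCNB2) drive mitosis with CDK1, and CCNA1 is best known from the male germ line. Transcription of CCNE1, CCNE2 and CCNA2 depends on E2F factors, while CCNA2, CCNB1 and CCNB2 are held down in resting cells by the DREAM complex, which binds CHR elements in their promoters near CCAAT boxes.

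The values are normalized bead-array intensities without a unit. A probe with a detection p under 0.01 on at least 2 of 12 arrays entered the tests, which left 16563 probes. Of the 9 cyclins, 7 were tested, each through 1 probe that was detected on all 12 arrays. CCND2 was detected on 0 of 12 arrays with either of its 2 probes, which read 14.2 to 30.3, and CCNE2 on 0 of 12 arrays at 14.9 to 23.8. A second probe for CCNE1 was also detected on 0 of 12 arrays. These values lie at the level of probes detected on no array, whose 99th percentile was 40.3, so for CCND2 and CCNE2 no change could be measured in either direction.

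The arrays carry 2 sets of names that disagreed, and every result below depends on which is right. The normalized table names its columns by sample, and these names were used here. The scanner table names its columns by the code in each sample's description, yet only 2 of 12 of its columns, those of the controls, were most like the normalized column of the same sample (the best match of a column had r of 0.928 to 0.979, the next best at most 0.833, over 12902 probes). The array most like each array belonged to its own group for 12 of 12 arrays under the normalized table's names and for 7 of 12 under the descriptions' names. Results under the descriptions' names use scanner signals, background-corrected and normalized anew with limma's neqc. They thus differ from the main results in processing as well as in names. Of 30 cyclin differences called below, 2 kept their call and direction under the descriptions' names, and 17 kept the direction without the call. The other 11 changed sign without a call, some of them with almost no difference left. CCNA2 shows the size of the disagreement: its lowest group mean on the log2 scale was 10.12 in crizotinib 24 h under the normalized table's names and 10.32 in ciclopirox 8 h under the descriptions' names. The 2 kept calls were CCNB1 and CCNB2, higher after crizotinib than after ciclopirox at 8 h, and CCNA2 was called there under the descriptions' names alone.

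**Figure D1:**
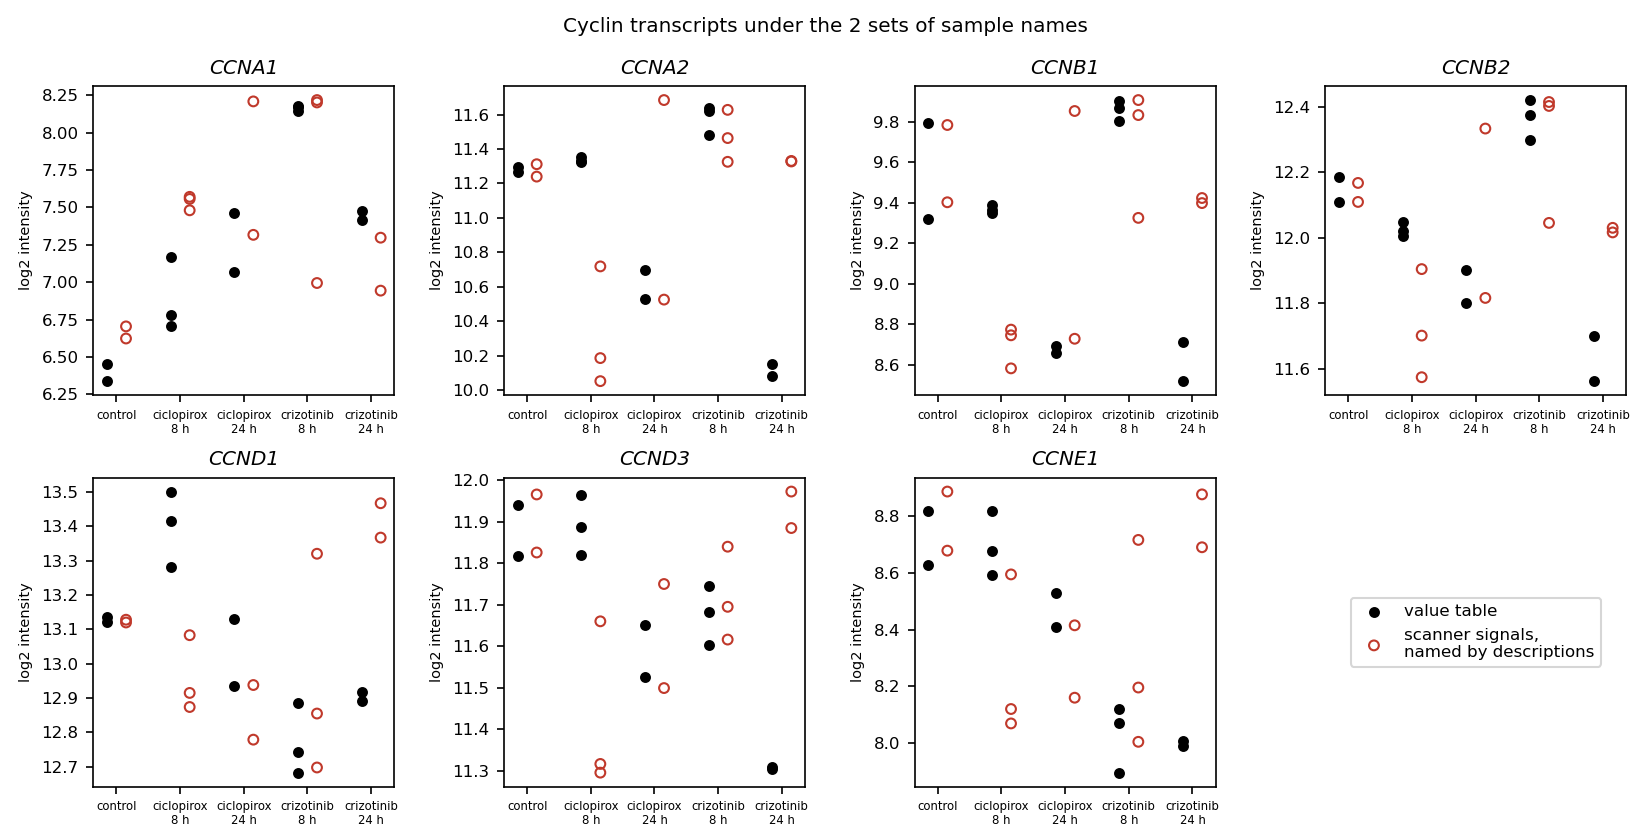
Log2 intensity (vertical axis) of the 7 tested cyclins in the 5 groups (horizontal axis), with 1 circle per array: filled for the normalized table under its own sample names, open for scanner signals named by the sample descriptions. CCNA2 is lowest in crizotinib 24 h (mean 10.12) under the first set of names and lowest in ciclopirox 8 h (mean 10.32) under the second.

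A375 was compared with marker lists of its lineage and of other cell types. Of 7 melanocyte-lineage genes with a probe, SOX10 (2211 to 3828 on all 12 arrays) and MITF (10 arrays) were detected, and PMEL, MLANA, TYR, TYRP1 and S100B, which serve or mark pigment production and differentiation, were detected on 0 arrays. The summed melanocyte list was 3640 to 3775 in control, 2467 to 2566 in ciclopirox 8 h, 3891 to 3992 in ciclopirox 24 h, 2359 to 2672 in crizotinib 8 h and 3807 to 3961 in crizotinib 24 h. This sum is almost all SOX10, since MITF read 34.1 to 63.5 and the others were not detected. Of 5 fibroblast genes, LUM and PDGFRB were detected on all 12 arrays at 38.4 to 93.4, and COL1A1 and COL1A2 on 0 arrays. DCN was detected on 0 arrays through its brightest probe (26 to 34.9), while another of its probes passed the filter. The summed level of the 5 genes was 185 to 193 in control and 242 to 268 in crizotinib 24 h. Of 3 leukocyte genes, CD14 was detected on 3 arrays and PTPRC and CD3E on 0, and the summed level was 71.9 to 81.9 in control and 99.2 to 99.7 in crizotinib 24 h. The keratinocyte and endothelial lists had no tested gene. The part of these genes in the cyclin results was not tested. In bulk RNA, fewer cells in a cycle phase and less RNA per cell cannot be told apart.

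The upstream sequences of CCNA2, CCNB1 and CCNB2 are shown because these 3 transcripts moved together across the arrays and are the textbook cases of CCAAT and CHR elements. RefSeq windows of 250 bases before the annotated start (GRCh38.p14, read 5′ to 3′ on the gene's strand) were matched for 6 of 9 cyclins. The capitals mark 2 kinds of word, searched on both strands, and no marked words overlap. The first is the CCAAT box, spelled CCAAT, which is spelled ATTGG where it lies on the other strand. The second is the CHR-type word, a family that holds TTTGAA as its usual spelling, CTTGAA as a variant, TTCGAA as a palindrome, and also TTTAAA in this search.
CCNA2 (chr4:121823884-121824133, minus strand): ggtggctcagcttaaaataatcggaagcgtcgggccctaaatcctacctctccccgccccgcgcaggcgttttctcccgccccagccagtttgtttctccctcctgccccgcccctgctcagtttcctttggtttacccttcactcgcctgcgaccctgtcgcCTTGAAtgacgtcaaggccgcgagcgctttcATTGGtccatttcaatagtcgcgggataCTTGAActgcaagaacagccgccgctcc
CCNB1 (chr5:69166900-69167149, plus strand): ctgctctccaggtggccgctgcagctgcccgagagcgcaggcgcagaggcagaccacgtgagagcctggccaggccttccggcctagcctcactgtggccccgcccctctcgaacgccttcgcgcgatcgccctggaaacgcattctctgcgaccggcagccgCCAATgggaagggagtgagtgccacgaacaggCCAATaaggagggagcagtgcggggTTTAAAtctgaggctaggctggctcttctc
CCNB2 (chr15:59104896-59105145, plus strand): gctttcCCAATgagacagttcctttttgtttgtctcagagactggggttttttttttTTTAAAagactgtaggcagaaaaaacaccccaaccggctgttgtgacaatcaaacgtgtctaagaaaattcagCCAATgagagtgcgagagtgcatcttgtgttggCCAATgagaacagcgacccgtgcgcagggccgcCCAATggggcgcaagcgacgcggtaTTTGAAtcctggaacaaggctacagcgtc

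The CCNA2 window held 1 CCAAT word, on the reverse strand, that began 56 bases before the start, and CTTGAA words that began at 87 and 28 bases. The CCNB1 window held 2 CCAAT words, at 87 and 55 bases, and TTTAAA at 30 bases. The CCNB2 window held 4 CCAAT words, at 244, 120, 87 and 54 bases, with TTTGAA at 29 and TTTAAA at 193 bases. Thus in all 3 windows a CHR-type word began 28 to 30 bases before the start, and the nearest CCAAT word lay upstream of it at 54 to 56 bases. Among 35116 RefSeq windows of the same length, 32% held CCAAT, 9.53% held at least 2 and 0.874% at least 4 copies. TTTGAA occurred in 13.3%, CTTGAA in 9.52%, TTCGAA in 1.19% and TTTAAA in 11.3% of windows, and CCAAT with any of these words in 10.2%. The CCNE1 window held TTTAAA at 28 bases and no CCAAT, and 2 of the 3 CCND3 start windows held CCAAT, at 136 and 64 bases, with no CHR-type word in any. The CCNA1 window held neither word, but its start in the table lies inside the annotated gene, so this window may not be the promoter. None of the E2F-type words TTTCCCGC, TTTGGCGC, TTTCGCGC and TTTGCCGC, present in 0.439% to 1.39% of windows, was found in a cyclin window. A word is a description of letters and not a measured binding site.

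Among the D cyclins, CCND1 differed most between the drugs at 8 h. CCND1, the D cyclin induced by MAP kinase signalling, read 8916 and 9004 in control, 9957, 10923 and 11595 after 8 h and 8962 and 7824 after 24 h of ciclopirox, and 6861, 6576 and 7567 after 8 h and 7747 and 7602 after 24 h of crizotinib. At 8 h all ciclopirox arrays lay above both controls and all crizotinib arrays below them. Crizotinib was thus 1.55-fold lower than ciclopirox at 8 h (log2 difference −0.63 ± 0.09 SE, limma adjusted p = 0.00361, n = 3 and 3). Neither drug differed from control past the threshold at that time, with 0.27 ± 0.10 for ciclopirox (adjusted p = 0.131) and −0.36 ± 0.10 for crizotinib (adjusted p = 0.0604, and 0.0465 with 1 probe per gene). CCND1 fell between 8 h and 24 h of ciclopirox by 0.37 on the log2 scale (SE 0.10, adjusted p = 0.0359), a call that was lost without ciclopirox 8 h replicate 2 or 3 or either ciclopirox 24 h replicate (adjusted p up to 0.208). From 8 h to 24 h of crizotinib its difference was 0.13 ± 0.10 (adjusted p = 0.347).

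CCND3 was lowest after 24 h of crizotinib. CCND3, a D cyclin that also pairs with CDK4 and CDK6, read 3611 and 3931 in control, 3616, 3995 and 3789 after 8 h and 3219 and 2948 after 24 h of ciclopirox, and 3430, 3113 and 3288 after 8 h and 2536 and 2528 after 24 h of crizotinib. The 8 h ciclopirox arrays overlapped the controls, and both 24 h crizotinib arrays lay below all other arrays. Against control, CCND3 fell 1.49-fold after 24 h of crizotinib (log2 change −0.57 ± 0.10, adjusted p = 0.00213), while the change after 24 h of ciclopirox was −0.29 ± 0.10 (adjusted p = 0.099). From 8 h to 24 h it fell by 0.37 on the log2 scale with crizotinib (SE 0.09, adjusted p = 0.0097; 0.055 at most without either crizotinib 24 h replicate). With ciclopirox it fell by 0.30 (SE 0.09, adjusted p = 0.0459), a call lost when any of the 5 ciclopirox arrays was left out (adjusted p up to 0.219). The drugs differed at 24 h by −0.28 ± 0.10, crizotinib minus ciclopirox (adjusted p = 0.0688).

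CCNE1 was lower with crizotinib at both times. CCNE1, the activator of CDK2 at the start of S phase, read 396 and 452 in control, 410, 452 and 386 after 8 h and 370 and 340 after 24 h of ciclopirox, and 268, 278 and 238 after 8 h and 257 and 254 after 24 h of crizotinib. All 5 crizotinib arrays lay below all other arrays, and the 8 h ciclopirox arrays overlapped the controls. CCNE1 fell 1.62-fold at 8 h (log2 change −0.70 ± 0.11, adjusted p = 0.00695) and 1.66-fold at 24 h of crizotinib (−0.73 ± 0.12, adjusted p = 0.00151). The 8 h call was lost without control replicate 2 (adjusted p = 0.0596). Between those times it differed by −0.03 (95% interval −0.27 to 0.21). Crizotinib was below ciclopirox at 8 h by −0.67 ± 0.10 (adjusted p = 0.00331) and at 24 h by −0.47 ± 0.12 (adjusted p = 0.0177; up to 0.0877 without ciclopirox 24 h replicate 1 or either crizotinib 24 h replicate). Ciclopirox against control gave −0.03 ± 0.11 at 8 h and −0.26 ± 0.12 at 24 h (adjusted p = 0.901 and 0.21).

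CCNA2 was lower at 24 h than in control with both drugs. CCNA2, the cyclin of S phase and G2, read 2467 and 2517 in control, 2576, 2621 and 2562 after 8 h and 1663 and 1474 after 24 h of ciclopirox, and 3193, 3150 and 2859 after 8 h and 1082 and 1137 after 24 h of crizotinib. The 4 arrays of 24 h lay below all others, crizotinib below ciclopirox, and the 8 h crizotinib arrays were the highest. Against control, CCNA2 fell 2.25-fold after 24 h of crizotinib (log2 change −1.17 ± 0.10, adjusted p = 3.29e-05) and 1.59-fold after 24 h of ciclopirox (−0.67 ± 0.10, adjusted p = 0.00363). At 8 h the changes were 0.30 ± 0.09 with crizotinib (adjusted p = 0.0692) and 0.05 ± 0.09 with ciclopirox (adjusted p = 0.757). From 8 h to 24 h CCNA2 fell 2.76-fold with crizotinib (−1.47 ± 0.09, adjusted p = 4.38e-06) and 1.65-fold with ciclopirox (−0.72 ± 0.09, adjusted p = 0.000957). The difference between these falls, −0.74 ± 0.13, passed the test (adjusted p = 0.0068), as did the difference between the drugs at 24 h (−0.50 ± 0.10, adjusted p = 0.0058).

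CCNA1 rose at 24 h with both drugs, and at 8 h with crizotinib. CCNA1, the germ-line A cyclin, read 87.5 and 80.9 in control, 110, 144 and 104 after 8 h and 176 and 134 after 24 h of ciclopirox, and 284, 289 and 288 after 8 h and 171 and 178 after 24 h of crizotinib. Both controls lay below every treated array, and the 8 h crizotinib arrays lay above all others. CCNA1 rose 3.41-fold at 8 h (log2 change 1.77 ± 0.15, adjusted p = 0.000292) and 2.07-fold at 24 h of crizotinib (1.05 ± 0.16, adjusted p = 0.00117). It fell by 0.72 on the log2 scale between those times (SE 0.15, adjusted p = 0.0043). With ciclopirox the change was 0.49 ± 0.15 at 8 h (adjusted p = 0.0688) and 0.87 ± 0.16 at 24 h (adjusted p = 0.0124), and the latter call was lost without either control or ciclopirox 24 h replicate 1 (adjusted p up to 0.0737). Crizotinib was 2.42-fold above ciclopirox at 8 h (1.28 ± 0.13, adjusted p = 0.000618), while at 24 h the ranges overlapped and the difference was 0.18 (95% interval −0.18 to 0.54, adjusted p = 0.488). The 8 h to 24 h changes differed between the drugs by −1.10 ± 0.21 (adjusted p = 0.0115; 0.051 without crizotinib 24 h replicate 1).

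CCNB1 fell at 24 h with both drugs and CCNB2 at 24 h with crizotinib. CCNB1, the mitotic activator of CDK1, read 888 and 640 in control, 652, 660 and 670 after 8 h and 413 and 404 after 24 h of ciclopirox, and 895, 933 and 957 after 8 h and 367 and 420 after 24 h of crizotinib. CCNB2, the B cyclin found at the Golgi apparatus, read 4657 and 4415 in control, 4235, 4152 and 4112 after 8 h and 3827 and 3563 after 24 h of ciclopirox, and 5040, 5481 and 5305 after 8 h and 3024 and 3328 after 24 h of crizotinib. For both genes the 4 arrays of 24 h were the lowest and the 8 h crizotinib arrays the highest. The 2 control arrays of CCNB1 were farther apart than the arrays of any other group. Against control, CCNB1 fell 1.92-fold after 24 h of crizotinib (log2 change −0.94 ± 0.14, adjusted p = 0.000907) and 1.84-fold after 24 h of ciclopirox (−0.88 ± 0.14, adjusted p = 0.00538). CCNB2 fell 1.43-fold after 24 h of crizotinib (−0.52 ± 0.09, adjusted p = 0.00294), and its change after 24 h of ciclopirox was −0.30 ± 0.09 (adjusted p = 0.0817).

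Between 8 h and 24 h of crizotinib, CCNB1 fell 2.36-fold (−1.24 ± 0.13, adjusted p = 7.09e-05) and CCNB2 1.66-fold (−0.73 ± 0.09, adjusted p = 0.000152). Between 8 h and 24 h of ciclopirox, CCNB1 fell 1.62-fold (−0.69 ± 0.13, adjusted p = 0.00586), and CCNB2 gave −0.17 ± 0.09 (adjusted p = 0.197). At 8 h crizotinib was above ciclopirox for CCNB1 (0.49 ± 0.11, adjusted p = 0.0299) and CCNB2 (0.34 ± 0.08, adjusted p = 0.027). The CCNB1 call was lost when any of the 6 arrays was left out (adjusted p up to 0.0859), and the CCNB2 call when any of them but crizotinib 8 h replicate 1 was left out (up to 0.091). At 24 h the CCNB1 difference between the drugs was −0.06 (95% interval −0.37 to 0.25) with overlapping ranges, and that of CCNB2 was −0.22 ± 0.09 (adjusted p = 0.13).

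**Figure D2:**
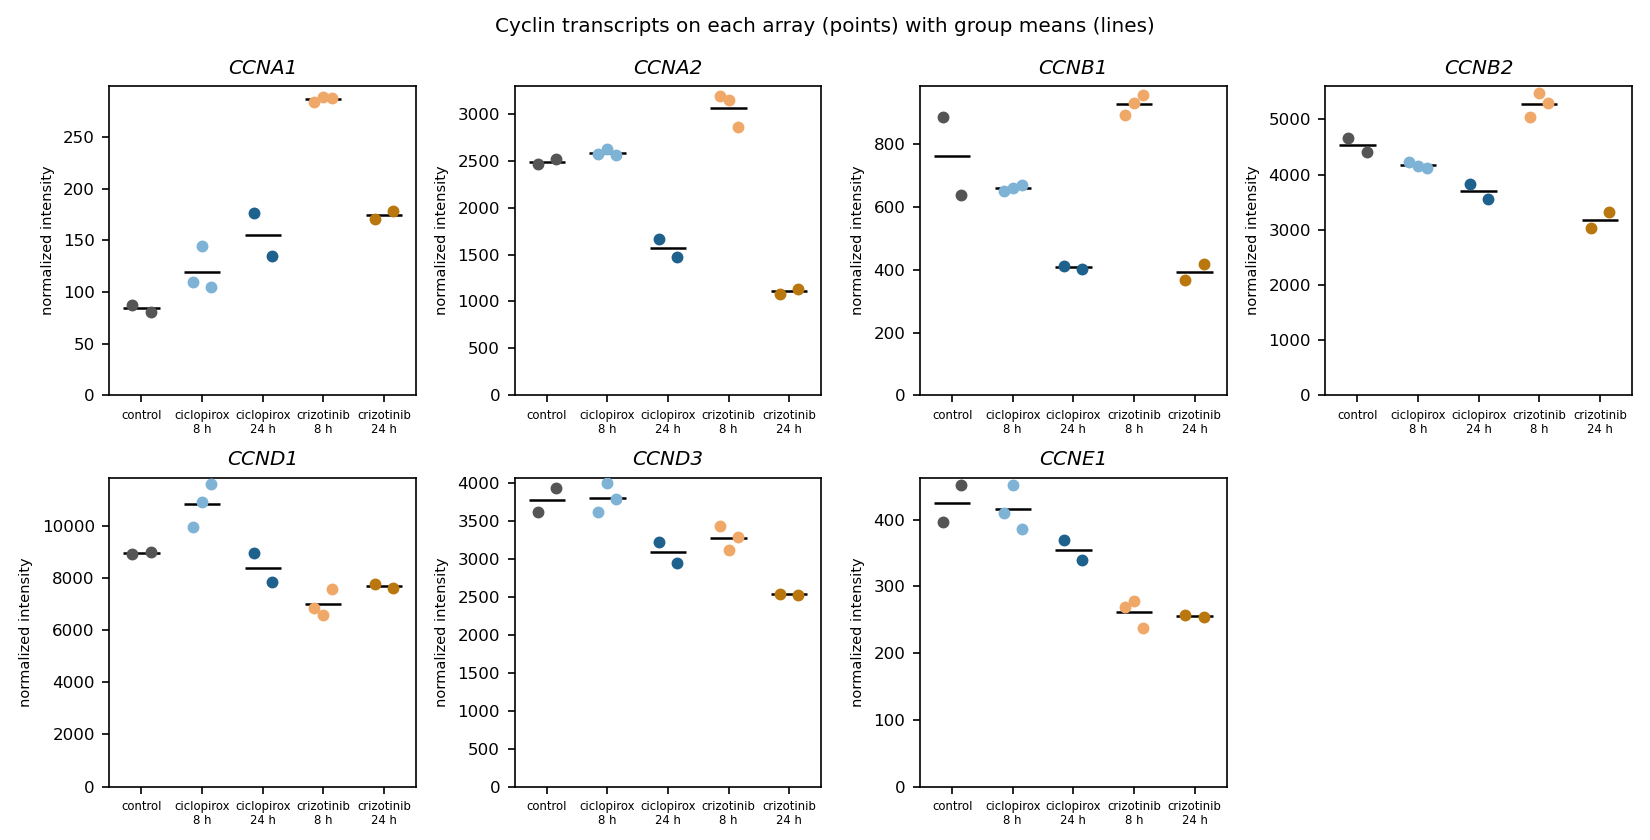
Normalized intensity (vertical axis, linear from 0, own scale per gene) of each of the 7 tested cyclins on the 12 arrays (points) in the 5 groups (horizontal axis), with group means as lines. CCNA2 is lowest on the crizotinib 24 h arrays (1082 and 1137), and CCNA1 is highest on the crizotinib 8 h arrays (284 to 289).

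Counting the 7 tested cyclins shows where their changes lay relative to all probes. Against control, 0 cyclins were called after 8 h of ciclopirox, where 7.84% of all probes were called, 3.51% higher and 4.33% lower (limma; 2 cyclins, CCNA1 and CCND1, had an unadjusted p under 0.05). After 24 h of ciclopirox 3 were called, CCNA1 higher and CCNA2 and CCNB1 lower, against 7.03% of all probes (3.95% higher and 3.09% lower). With only the arrays of these groups in the fit, 0 were called. After 8 h of crizotinib 2 were called, CCNA1 higher and CCNE1 lower, against 7.05% of all probes (3.58% higher and 3.47% lower). After 24 h of crizotinib 6 were called, with CCNA1 higher and CCNA2, CCNB1, CCNB2, CCND3 and CCNE1 lower, in a comparison that called 25.8% of all probes (13.0% higher and 12.9% lower). CCND1 was the member without a call there (−0.22 ± 0.11, adjusted p = 0.173). An unadjusted limma p under 0.05 was reached by 5 cyclins after 24 h of ciclopirox, 7 after 8 h and 6 after 24 h of crizotinib. The median log2 change of the 7 cyclins in these 4 comparisons was 0.01, −0.29, 0.22 and −0.57, where the median of all tested probes was between −0.012 and 0.003. Under the descriptions' names 0 cyclins were called in each of these comparisons.

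**Figure D3:**
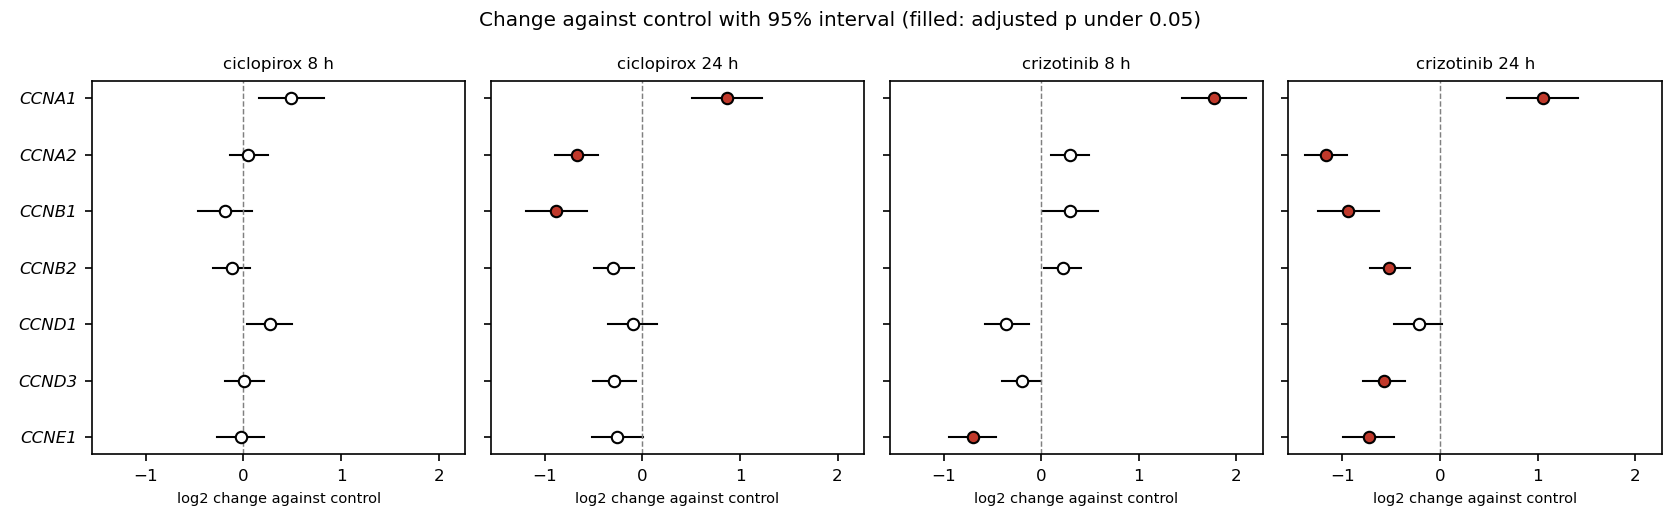
Log2 change against control (horizontal axis) of the 7 tested cyclins (vertical axis) for each drug and time, with 95% intervals as bars and calls at an adjusted p under 0.05 marked. CCNA1 lies to the right of 0 in each panel, and after 24 h of crizotinib the other 6 lie to the left, CCNA2 at −1.17.

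Comparisons that do not use the shared controls gave further counts. From 8 h to 24 h of ciclopirox 4 cyclins fell (CCNA2, CCNB1, CCND1 and CCND3) and 0 rose, where 15.7% of all probes were called (8.91% higher and 6.84% lower). From 8 h to 24 h of crizotinib 5 fell (CCNA1, CCNA2, CCNB1, CCNB2 and CCND3) and 0 rose, where 33.3% of all probes were called (17.4% higher and 15.9% lower). At 8 h 5 cyclins differed between the drugs, with crizotinib above ciclopirox for CCNA1, CCNB1 and CCNB2 and below it for CCND1 and CCNE1, where 7.11% of all probes were called (3.51% higher and 3.60% lower). At 24 h 2 differed, CCNA2 and CCNE1, both lower with crizotinib, where 19.9% of all probes were called (9.89% higher and 10.0% lower), and 0 with only the arrays of these groups in the fit. The change from 8 h to 24 h itself differed between the drugs for 3 cyclins, CCNA1, CCNA2 and CCNB2, where 8.20% of all probes were called (3.88% higher and 4.32% lower). For CCNB1 this difference was −0.55 ± 0.18 (adjusted p = 0.0894) and for CCND1 0.50 ± 0.14 (adjusted p = 0.0601; 0.0444 with 1 probe per gene). Under the descriptions' names 3 cyclins were called between the drugs at 8 h and 0 in each of the other 4 comparisons.

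**Figure D4:**
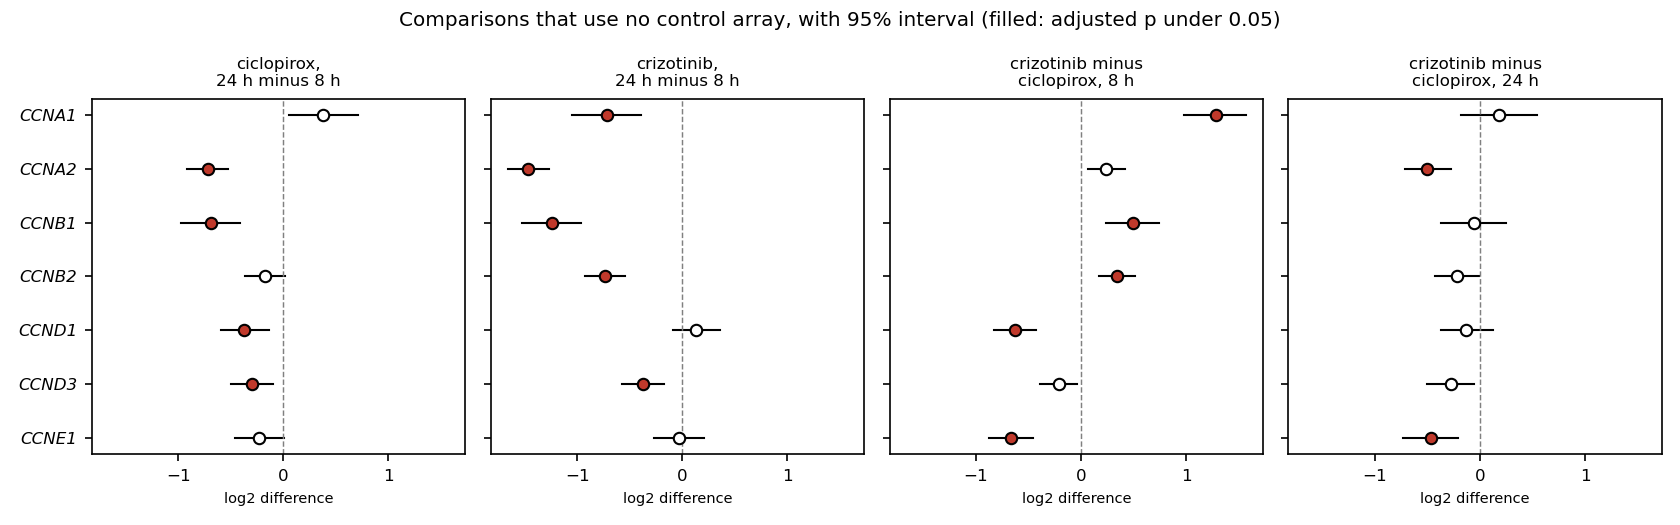
Log2 difference (horizontal axis) of the 7 tested cyclins (vertical axis) between times within each drug and between the drugs at each time, with 95% intervals as bars and calls at an adjusted p under 0.05 marked. CCNA2 shows the lowest value, −1.47 from 8 h to 24 h of crizotinib, and at 8 h CCNA1 (1.28) and CCND1 (−0.63) lie on opposite sides of 0.

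Across the 12 arrays, which share the group structure and both drugs, the intensities of CCNA2, CCNB1 and CCNB2 ran together on the log2 scale (Pearson r of 0.921 for CCNA2 with CCNB1, 0.928 for CCNA2 with CCNB2 and 0.949 for CCNB1 with CCNB2). CCND1 ran with CCNE1 (r = 0.797) and against CCNA1 (r = −0.714), and CCNE1 ran against CCNA1 (r = −0.807). CCND3 ran with CCNA2 (r = 0.785), CCNE1 (0.757) and CCND1 (0.629), and less closely with CCNB1 (0.584) and CCNB2 (0.559). CCNA1 had an r of 0.101 with CCNA2. Among 10329 other genes on the same arrays, the profile of CCNB1 was most like BUB1 (r = 0.989), PRC1 (0.965) and PSMA4 (0.965), genes of the spindle checkpoint, the central spindle and the proteasome. That of CCNB2 was most like NDC80 (0.986), CENPA (0.984) and RACGAP1 (0.975), which act at the kinetochore, the centromere and in cytokinesis. CCNA2 was most like ARHGAP27P1 (0.989), ZIC2 (0.984) and FAM83D (0.976), and CCND3 was most like GATAD2A (0.976), MCM4 (0.961) and E2F2 (0.956). CCNE1 was most like PFKFB3 (0.951), CCND1 most like SLX9 (0.95), and CCNA1 most like NME6 (0.922). These coefficients describe the arrays and were not tested.

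The partners and regulators of the cyclins were read from 8 lists, each gene counted through its highest-mean probe alone, and genes whose other probes gave another call are also named, a choice made after their values were seen. After 24 h of crizotinib, when 12.9% of all probes were called lower and 13.0% higher, 2 of 4 partner kinases fell: CDK1, from 1585 to 1714 in control to 573 to 739 (log2 change −1.34 ± 0.12, adjusted p = 5.42e-05), and CDK2 (−0.69 ± 0.12). The other 2, CDK4 and CDK6, were not called. Of the 5 phosphatases and kinases that set inhibitory phosphorylation on CDKs, 4 fell: CDC25A (−1.38), PKMYT1 (−0.99), WEE1 (−0.97) and CDC25C (−0.78). Of 16 genes of cyclin and CDK inhibitor destruction, 9 fell and 0 rose, among them UBE2C (−0.82) and CDC20 (−0.78), which serve the anaphase-promoting complex, and SKP2 (−0.74), which targets p27. FBXO5, an inhibitor of that complex, gave −1.21 through one probe and −0.11 (adjusted p = 0.672) through another. SKP1, not called through its counted probe, was lower through another (−0.62, adjusted p = 0.0017), and an additional probe each of SKP2 (−0.60) and CKS2 (−0.40) was not called. Of 20 RB, E2F and DREAM genes, 9 were called lower and 1 higher, led by E2F2 (−1.78), LIN9 (−0.88), NFYA (−0.79) and FOXM1 (−0.69). The 9 include E2F8, which was not above background in either group, so its call is not a measured fall. The proliferation markers MKI67 (−1.11), TOP2A (−0.77) and PCNA (−0.67) all fell, although another PCNA probe gave −0.47 (adjusted p = 0.171).

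Through the counted probes, the calls among the CDK inhibitors and the other cyclin classes at that time were higher, to be read against the 13.0% of all probes called higher. CDKN1A, which encodes the CDK inhibitor p21, was not above background in control (mean 28.3) and read 225 and 240 after 24 h of crizotinib, at least 5.77-fold higher (adjusted p = 1.67e-05), the 1 of 6 CDK inhibitors called. This bound sets the treated mean against the background level of 40.3. Of 15 other cyclins, 3 rose and 0 fell through the counted probe: CCNL2 (0.97), a cyclin of RNA processing, CCNG1 (0.70), a p53 target, and CCNG2, which was not above background in control (at least 1.18-fold). CCNG2 read only 40.5 and 55.9 after 24 h of crizotinib, so 1 of these arrays lay almost at the background level. Other probes of this list did fall, those of CCNH (−0.51, adjusted p = 0.0252) and CCNC (−0.45, adjusted p = 0.0117), whose counted probes gave 0.16 and −0.33 without a call. CDK7, the catalytic subunit of the CDK-activating kinase, gave 0.33 ± 0.10 (adjusted p = 0.0278), the 1 of 3 genes of that complex called through the counted probe, and CCNH, named above, belongs to it too.

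After 8 h of crizotinib, when 3.58% of all probes were called higher and 3.47% lower, the calls in these lists were mostly higher. All 3 genes of the CDK-activating kinase were called, with CCNH at 0.62 (but −0.26 through another probe), MNAT1 at 0.45 and CDK7 at 0.33. CDC25C (0.53) and CDC25B (0.39) rose, as did CKS1B (0.57) and CKS2 (0.54), small CDK-binding proteins (though another CKS1B probe gave 0.28, adjusted p = 0.104), and MKI67 (0.66) and TOP2A (0.47). CDKN1B, which encodes p27, gave 1.15 through one probe and 0.26 (adjusted p = 0.605) through another. In the RB, E2F and DREAM list NFYC rose (0.46) and E2F7, a repressive E2F, fell (−0.49), and 0 of 4 partner kinases were called. Other probes were called higher for CDK1 (0.62, adjusted p = 0.038) and UBE2C (0.62, adjusted p = 0.0102), whose counted probes gave 0.20 and 0.26.

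After 24 h of ciclopirox, when 3.95% of all probes were called higher and 3.09% lower, 0 of 4 partner kinases and 0 of 3 proliferation markers were called. CDC20 (−0.67), CKS2 (−0.57), WEE1 (−0.56), E2F2 (−0.86) and E2F3 (−0.47) fell, and E2F7 (0.56), RBL2 (0.48), an RB relative of the DREAM complex, and CDKN1A (at least 1.39-fold) rose. RBL2 and E2F3 were not particular to ciclopirox. The mean log2 of RBL2 was 8.51 in control, 8.99 after 24 h of ciclopirox and 9.05 after 24 h of crizotinib. For E2F3 these means were 9.58, 9.12 and 9.06. After 24 h of ciclopirox another probe of CCNH was called lower (−0.56, adjusted p = 0.0437), while its counted probe gave 0.30 (adjusted p = 0.14). Another probe of CDC25C was also called lower (−0.46, adjusted p = 0.0491), while its counted probe (−0.35) and a further one (−0.29) were not called. After 8 h of ciclopirox, CCNH (0.47, and −0.15 through another probe) and NFYC (0.41) rose, and CCNO (−0.45) fell. Through other probes CDC25C fell (−0.61, adjusted p = 0.0119, and −0.53, adjusted p = 0.00846) and SKP2 rose (0.71, adjusted p = 0.00925), while their counted probes gave −0.20 and −0.02 without a call. Between the drugs at 24 h, with no control involved, CDK1 (−1.10 ± 0.12, adjusted p = 0.000226) and CDK2 (−0.76 ± 0.12, adjusted p = 0.00166) were lower and CDKN1A (2.05 ± 0.22, adjusted p = 0.000193) higher with crizotinib.

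**Figure D5:**
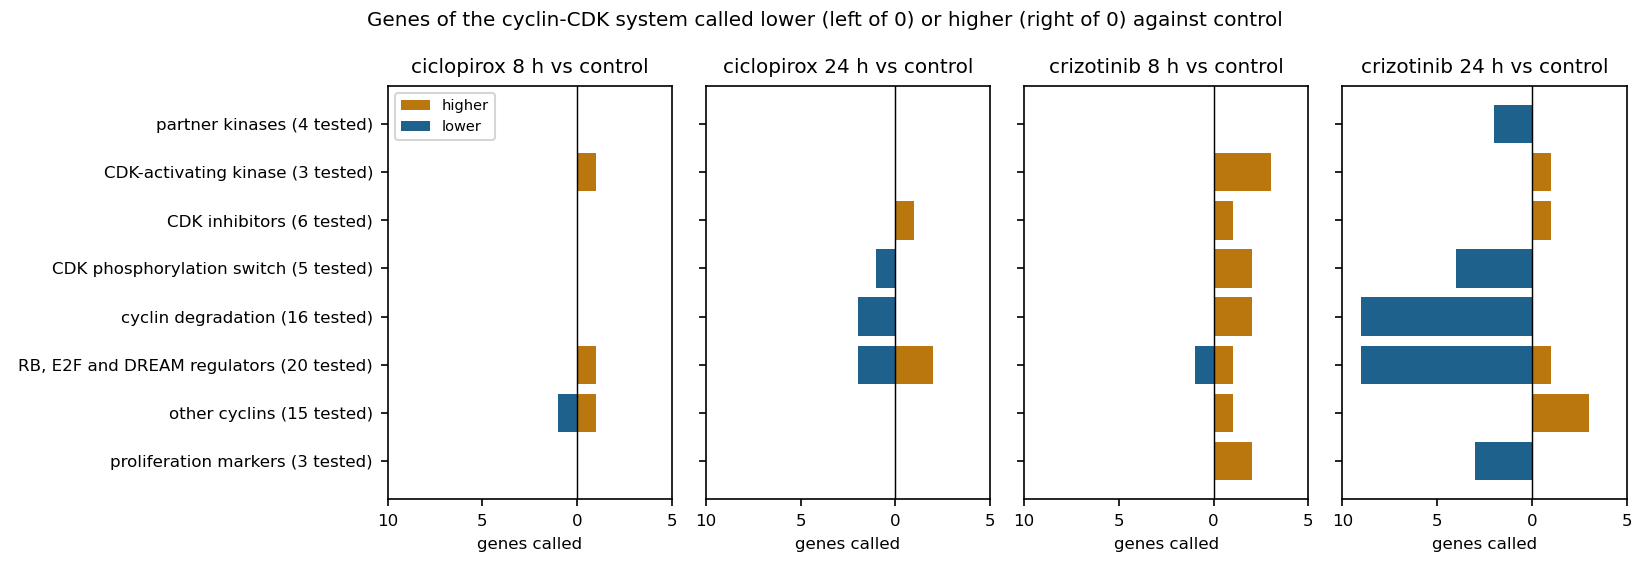
Number of genes called (horizontal axis), lower to the left and higher to the right of 0, in each of 8 lists of the cyclin and CDK system (vertical axis, with the number tested) for each drug and time against control. After 24 h of crizotinib, 9 of 16 genes of cyclin destruction and 9 of 20 RB, E2F and DREAM genes were called lower.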

How the data were processed

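RNA (300 ng) of 12 A375 samples was amplified, biotin-labelled and hybridised to Illumina bead arrays, per the labels' protocols, and read with GenomeStudio, per the submitters' processing notes. The codes in the sample descriptions, which also name the scanner columns, share 1 number, read here as 1 chip. The deposited normalized table holds intensities (12.0 to 38205) and no source used here gives its normalization; column medians were 28.3 to 29.6, so the scale is linear. The deposited scanner table holds signals as intensity (28.8% below 0) and a detection p-value per probe, per the file headers. Log2 of the normalized table was fitted with limma 3.58.1 (R 4.3.3) at the level of probes, with group means over all 12 arrays, empirical Bayes variance and Benjamini-Hochberg adjustment over 16563 probes within each of 9 comparisons; a call is an adjusted p under 0.05. SE and intervals come from that fit, and the number of arrays limits the precision. Symbols come from the platform annotation: 27002 probes had 1 symbol, 4 several and 11214 none. Named genes were all 9 cyclins, up to 4 called genes per list and comparison with the largest change, and the genes nearest in profile. Genes whose other probes gave another call were also named, a choice made after their values were seen. The fit was tested on simulated data with 200 changed probes. Members and lists were chosen with earlier results of these data known. Replicate numbers left no visible shared deviation. Same-numbered arrays of different groups had correlations of their deviations of −0.092 to 0.081 over 21 pairs. Arrays with different numbers had −0.111 to 0.111 over 36 pairs. The labels do not say whether the numbers pair cultures. No columns were identical. The alternatives were the descriptions' names with neqc-normalized scanner signals, other detection filters, 1 probe per gene and 16 added before log2. Further ones were quantile normalization, a replicate block, only the groups compared, and each array left out.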

Additional observations from a re-analysis of the deposited data

Results flagged for a closer look

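For 3 cyclins the time course depended on the drug, by limma's test of the difference between the drugs in the change over time. For CCNA1 the difference (crizotinib minus ciclopirox, log2 scale) was −1.10 (adjusted p = 0.0115): CCNA1 fell from 8 h to 24 h of crizotinib and gave 0.38 ± 0.15 with ciclopirox (adjusted p = 0.111). For CCNA2 it was −0.74 (adjusted p = 0.0068), where both drugs showed a fall. For CCNB2 it was −0.56 (adjusted p = 0.02). The CCNA1 call was lost without crizotinib 24 h replicate 1 (adjusted p = 0.051), and the CCNB2 call without that array or without ciclopirox 24 h replicate 1 (adjusted p up to 0.0878). Under the descriptions' names 0 of the 3 were called.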

How the results depend on the processing

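Of the 30 called cyclin values, 30 kept their call with probes detected on all 12 arrays, with 1 probe per gene, with 16 added before log2 and with quantile normalization. With no detection filter 23 were kept, with a replicate block 25 and with only the groups compared 21, and 0 changed direction. The count of cyclins called moved by over 1.5 times in these cases. With probes detected on all 12 arrays it was 1 (0 in the report) for ciclopirox 8 h and 4 (2) for crizotinib 8 h against control. With only the groups compared, it was 0 (3) for ciclopirox 24 h and 1 (2) for crizotinib 8 h against control, 2 (4) for ciclopirox from 8 h to 24 h and 0 (2) between drugs at 24 h. With no filter it was 2 (4) for ciclopirox from 8 h to 24 h, 3 (5) between drugs at 8 h and 1 (2) at 24 h. With the replicate block it was 2 (4) for ciclopirox from 8 h to 24 h and 3 (5) between drugs at 8 h. The replicate numbers left no visible shared deviation between groups, which does not settle whether they pair arrays. Under the descriptions' names the counts were 3 between drugs at 8 h and 0 in the other 8 comparisons, and 11 called values changed direction on the log2 scale: for crizotinib 24 h against control CCNA2 (0.05), CCND3 (0.03) and CCNE1 (0); for ciclopirox from 8 h to 24 h CCNA2 (0.79), CCNB1 (0.59) and CCND3 (0.20); for crizotinib from 8 h to 24 h CCND3 (0.21); between drugs at 8 h CCND1 (0) and CCNE1 (0.04), and at 24 h CCNA2 (0.22) and CCNE1 (0.50). Those at 0 to 0.05 were differences that had all but vanished, so they changed in sign and did not reverse. The cause was not tested.

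Leaving out each array in turn, the counts ranged from 0 to 0 for ciclopirox 8 h, 2 to 3 for ciclopirox 24 h, 1 to 2 for crizotinib 8 h and 6 to 6 for crizotinib 24 h against control. They ranged from 2 to 3 for ciclopirox and 4 to 5 for crizotinib between times, 3 to 4 at 8 h and 1 to 2 at 24 h between drugs, and 1 to 4 for the difference between drugs in the change over time. The lowest count came without control replicate 2 for crizotinib 8 h and without crizotinib 24 h replicate 1 for the difference in the change over time. Where a group was left with 1 array, that array was assumed to vary like the other groups. No call could be made for CCND2 and CCNE2, whose signal was not above background.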
